A study of Mus musculus with 56 samples.

Results

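TH1 cells labelled as knockout for deoxyhypusine hydroxylase (Dohh) were compared with WT TH1 cells across all expressed genes. The comparison used 6 of the 56 samples of the series, chosen by their labelled genotype and polarizing condition. These were 3 libraries with the genotype label DOHH_KO, written as labelled Dohh-/- and called KO1, KO2 and KO3 here, and 3 with the label DOHH_WT, called WT1, WT2 and WT3. Of the 47937 genes in the count table, 13897 had enough counts to be tested. The series addressed how polyamine synthesis and the hypusination it feeds bear on CD4+ T helper cell fate, and holds TH1, TH2, TH17 and Treg cultures from mice bred to lack Odc or Dohh in T cells. All mice were C57BL/6. Mice carrying loxP sites around exons 2 to 4 of Dohh (Dohh flox/flox) had been crossed to CD4Cre mice, in which the CD4 promoter drives Cre recombinase, and controls lacked Cre. This Cre acts from the thymus onwards in every T cell that has passed through CD4 expression, those that later become CD8+ T cells included. CD4+ T cells, called so in the labels and naive CD4+ T cells in the study's methods, were taken from spleen and lymph nodes by negative selection, which removes unwanted cells and leaves the wanted cells unlabelled. They were activated with anti-CD3 at 5 µg/mL and anti-CD28 at 2 µg/mL in IL-2 at 100 U/mL, and TH1 cultures further received 10 ng/mL IL-12, 4 µg/mL anti-IL-4 and 10 ng/mL IL-2 until day 4. The age and sex of each animal, and whether a library came from 1 mouse or from pooled mice, were not used here, so the p-values measure the spread between these libraries, which may be technical in part. Sex-linked transcripts, given below, differed between libraries of each group, so not all libraries of a group came from the same mouse.

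Dohh catalyses the last step in the synthesis of hypusine, an amino acid found on the translation factor eIF5A. Deoxyhypusine synthase (Dhps) transfers part of spermidine to a lysine of eIF5A and Dohh hydroxylates the product, and hypusinated eIF5A helps ribosomes through peptide sequences at which they stall and at termination. TH1 cells are CD4+ T helper cells formed under IL-12 and the transcription factor T-bet, known for secreting IFN-γ. Conventional CD4+ T cells read antigen through receptors of an alpha and a beta chain and keep CD4 on their surface. They hold most granzyme and NK receptor genes of cytotoxic lymphocytes at low levels, though the granzyme gene Gzmb was abundant in the WT libraries, as given below.

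The libraries labelled Dohh-/- differed more among themselves than the WT libraries did. Values are given as counts per 1000000 counts of the TMM-scaled library total (CPM), in the order of replicates 1, 2 and 3. Total counts were 11307397, 9444567 and 8372546 in WT1 to WT3 and 10092541, 8427248 and 9120382 in KO1 to KO3, and a count of 0 allows up to 3 counts, or 0.248 to 0.473 CPM, at the 95% level of counting error. Across genes, Pearson's r of log2 CPM was 0.988 to 0.99 between WT libraries but 0.956 for KO1 with KO2, 0.956 for KO1 with KO3 and 0.914 for KO2 with KO3. KO2 had the lowest correlations with WT, 0.848 to 0.86 against 0.904 to 0.915 for KO1 and KO3. Its TMM factor was 0.7525, outside the range of 0.9215 to 1.1123 of the 18 libraries of the other subsets, and cytosolic ribosomal protein genes took 17.8% of its counts against 10.1% to 12% in the other TH1 libraries. Its sex-linked transcripts were mixed, since the X inactivation transcript Xist stood at 166 CPM and the Y-linked genes Ddx3y, Eif2s3y, Kdm5d and Uty summed to 15.2 CPM. WT1 and KO1 held Xist at 519 and 177 CPM with Y-linked sums of 0 and 0.102 CPM, while WT2, WT3 and KO3 held Xist at 0.199, 0.449 and 0.331 CPM with Y-linked sums of 192, 235 and 229 CPM. These sums were chosen after their values were seen. Among the genes given below with a fold change, some had at most 9 counts in every library of 1 of the groups, which leaves the size of that change uncertain. These include Cd163l1, Cdkn2a, Gpx8, Gzme, Gzmg, Gzmk, Il5, Il6ra, Klrb1c, Klrg1, Mcpt8, Notch3, Nrgn, S100a9, Sema3b and Tox. Each count below is therefore given with all libraries, and each result that turns on 1 library is also given without it.

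The targeted gene did not separate the genotypes in the direction of its label. Dohh stood at 38.1, 37.8 and 34.7 CPM in WT and at 103, 148 and 47.5 CPM in the libraries labelled Dohh-/- (log2 fold change 1.43 ± 0.259 SE, adjusted p = 0.000132), so that every library labelled Dohh-/- lay above every WT library. The table holds 1 count per gene over all exons, and Dohh (chr10:81384428-81388352 in GRCm38) shares 47.5% of its exonic bases with the annotated gene Gm48551, so this count says nothing of exons 2 to 4. The direction of every comparison below accordingly rests on the labels. A higher Dohh level was not particular to the label Dohh-/-. In TH1 libraries of the Odc mice, Dohh stood at 83.4 ± 13.7 CPM under the label ODC_KO and 34.9 ± 8.48 CPM under ODC_WT (SD, n = 4). An exchange of labels was not tested. The kit marked the strand of each transcript, but the strand setting of the counting is not given in the sources used here. Of the genes named below, Ctsd, Foxp3, Gzmf, Hdac11, Ifng, Il12rb2, Il5, Klrb1c, Ldhd, Mpo, Mrpl12, Pfkm, S100a4, Stat4 and Xcl1 share at least 10% of their exonic bases with other annotated genes and their counts are uncertain for that reason.

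Genes of hypusine and polyamine metabolism were called in both directions. Of 31 listed genes 28 were tested, with 4 (7 without KO3) higher and 2 lower in the libraries labelled Dohh-/- and a median log2 fold change of 0.28, against 14.8% higher, 14.2% lower and a median of 0.01 over all genes tested. A gene was called, and is said to have risen or fallen, at an absolute log2 fold change above 1 with an edgeR adjusted p-value below 0.05. Besides Dohh itself, the spermidine synthase gene Srm rose from 113, 139 and 105 CPM to 401, 562 and 136 CPM (log2 fold change 1.62 ± 0.324 SE, adjusted p = 0.000347), with KO3 inside the WT range. Dhps, the first enzyme of hypusination, stood at 35.7, 41.1 and 38.6 CPM in WT and 74, 111 and 49.2 CPM in the libraries labelled Dohh-/- (log2 fold change 1.02 ± 0.207 SE, adjusted p = 0.000402, with 0.68 at adjusted p = 0.00405 and no longer called without KO2 and 0.98 at adjusted p = 0.00305 and no longer called without WT1). Slc3a2, the heavy chain of amino acid transporters, rose by a similar amount (log2 fold change 1.06 ± 0.192 SE, adjusted p = 0.000131, with 0.97 at adjusted p = 0.000832 and no longer called without KO1 and 0.86 at adjusted p = 0.00113 and no longer called without KO2). Eif5a, the target of both enzymes, stood at 1252, 1269 and 1233 CPM and 2575, 3531 and 1228 CPM, which did not pass the fold threshold (log2 fold change 0.97 ± 0.239 SE, adjusted p = 0.00219, with 1.3 at adjusted p = 2.44e-06 and called without KO3). Its paralog Eif5a2 was at 8.86, 9.96 and 8.97 CPM and 13, 7.26 and 11.3 CPM, with overlapping groups (log2 fold change 0.19 ± 0.233 SE, adjusted p = 0.518). Odc1, the ornithine decarboxylase gene that opens polyamine synthesis, was at 461, 525 and 497 CPM in WT and 800.2, 709.5 and 790.2 CPM in the libraries labelled Dohh-/- (log2 fold change 0.63 ± 0.202 SE, adjusted p = 0.0128). The groups did not overlap, but the change stayed under the fold threshold. Azin2, an antizyme inhibitor, fell (log2 fold change -1.86 ± 0.241 SE, adjusted p = 3.84e-06), as did the argininosuccinate synthase gene Ass1 (log2 fold change -1.10 ± 0.145 SE, adjusted p = 4.2e-06). The spermidine and spermine catabolic genes Sat1, Smox and Paox had log2 fold changes of -0.59, -0.44 and 1.0 and none was called, though Paox lay at the fold threshold and was called without KO1, KO3, WT1 or WT2 (1.04, 1.26, 1.03 and 1.08).

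The genotypes differed over a large part of the transcriptome. With edgeR's quasi-likelihood test, 2062 genes (14.8% of those tested) were higher and 1977 (14.2%) were lower in the libraries labelled Dohh-/-. Without KO2 the calls numbered 1473 higher (10.3% of 14254 genes tested) and 1668 lower (11.7%). The 1357 higher genes found both ways were 65.8% of the calls with all libraries and 92.1% of the calls without KO2, and the 1538 lower genes were 77.8% and 92.2%. All 3 libraries labelled Dohh-/- lay above all 3 WT libraries for 3296 genes (23.7%) and below them for 3755 (27.0%), shares against which counts of members are to be read. In bulk RNA, fewer cells of a type and less RNA per cell cannot be told apart, and this holds for every result below.

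Defining transcripts of conventional CD4+ T cells were low in the libraries labelled Dohh-/-. Cd4, the coreceptor that defines the lineage, stood at 880.3, 897 and 750.3 CPM in WT and at 41.6, 44.5 and 22.1 CPM in the libraries labelled Dohh-/- (log2 fold change -4.55 ± 0.265 SE, adjusted p = 7.82e-11). The libraries labelled Dohh-/- all lay far below WT, with KO3 the lowest. Cd5 and Cd6, scavenger receptor family members that dampen receptor signalling in T cells, fell alongside it. Cd5 went from 484, 625 and 434 CPM to 39.9, 48.4 and 40.4 CPM (log2 fold change -3.59 ± 0.297 SE, adjusted p = 1.19e-08) and Cd6 from 415, 509 and 400.3 CPM to 76.9, 97.4 and 68.6 CPM (log2 fold change -2.45 ± 0.243 SE, adjusted p = 1.32e-07). Zbtb7b, which encodes ThPOK, the transcription factor that commits thymocytes to the CD4 lineage, fell from 152, 148 and 149 CPM to 23.8, 15.5 and 45.6 CPM (log2 fold change -2.40 ± 0.255 SE, adjusted p = 3.36e-07). Thy1, a surface glycoprotein of all mouse T cells, went the other way and stood at 978, 960.3 and 850.1 CPM in WT and 1933, 2795 and 1734 CPM in the libraries labelled Dohh-/- (log2 fold change 1.21 ± 0.19 SE, adjusted p = 2.89e-05, with 0.98 at adjusted p = 0.000129 and no longer called without KO2). Cd3d and Cd3e, signalling chains of the receptor complex, had log2 fold changes of 0.51 and -0.29 and were not called. Of the 22 genes of the list of the T cell receptor complex and identity, 1 (0 without KO2) was higher, which was Thy1, and 8 were lower.

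The receptor chains themselves differed between the groups. Trac, the constant segment of the alpha chain, was at 397, 452 and 412 CPM in WT and 79.1, 103 and 161 CPM in the libraries labelled Dohh-/- (log2 fold change -1.88 ± 0.246 SE, adjusted p = 4.27e-06). Summed over their variable segments, alpha chain transcripts stood at 99.9, 112 and 84.3 CPM in WT and 10.0, 3.47 and 31.2 CPM in the libraries labelled Dohh-/-, and beta chain transcripts at 291, 302 and 277 CPM against 60.7, 45.9 and 127 CPM. The gamma and delta chains, which form the receptor of γδ T cells, ran in the opposite direction. The summed gamma constant segments stood at 22.3, 22.9 and 20.9 CPM in WT and at 446, 460.5 and 441 CPM in the libraries labelled Dohh-/-, and gamma variable segments at 6.87, 7.67 and 5.72 CPM against 94.8, 18.6 and 121 CPM. Delta variable segments were at 23.5, 24.1 and 17.5 CPM in WT and 51.8, 14.7 and 141 CPM in the libraries labelled Dohh-/-, with KO2 below WT. This delta sum includes segments named for both alpha and delta chains, which were left out of the alpha sum. It is therefore no measure of delta chains alone. Trdc, the delta constant segment, stood at 25.1, 25.3 and 22.8 CPM and 284, 332 and 592 CPM (log2 fold change 4.04 ± 0.303 SE, adjusted p = 3.1e-09). All 6 listed markers of γδ T cells rose, with a median log2 fold change of 4.26, and their summed level was 45.1 to 50.1 CPM in WT and 760.1 to 1100.4 CPM in the libraries labelled Dohh-/-. They include Tcrg-C4 (log2 fold change 4.46 ± 0.248 SE, adjusted p = 7.82e-11), Tcrg-C2 (log2 fold change 4.30 ± 0.243 SE, adjusted p = 7.82e-11), the scavenger receptor gene Cd163l1 (log2 fold change 5.88 ± 0.662 SE, adjusted p = 1.63e-06) and the transcription factor gene Sox13 (log2 fold change 2.65 ± 0.616 SE, adjusted p = 0.00132, with 1.93 without KO3). The segments of a chain are near copies of each other, so that the split of reads among them is uncertain. Trac, Trdc, Cd3d, Cd3e, Sox13 and the sums were named after their values were seen.

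**Figure D1:**
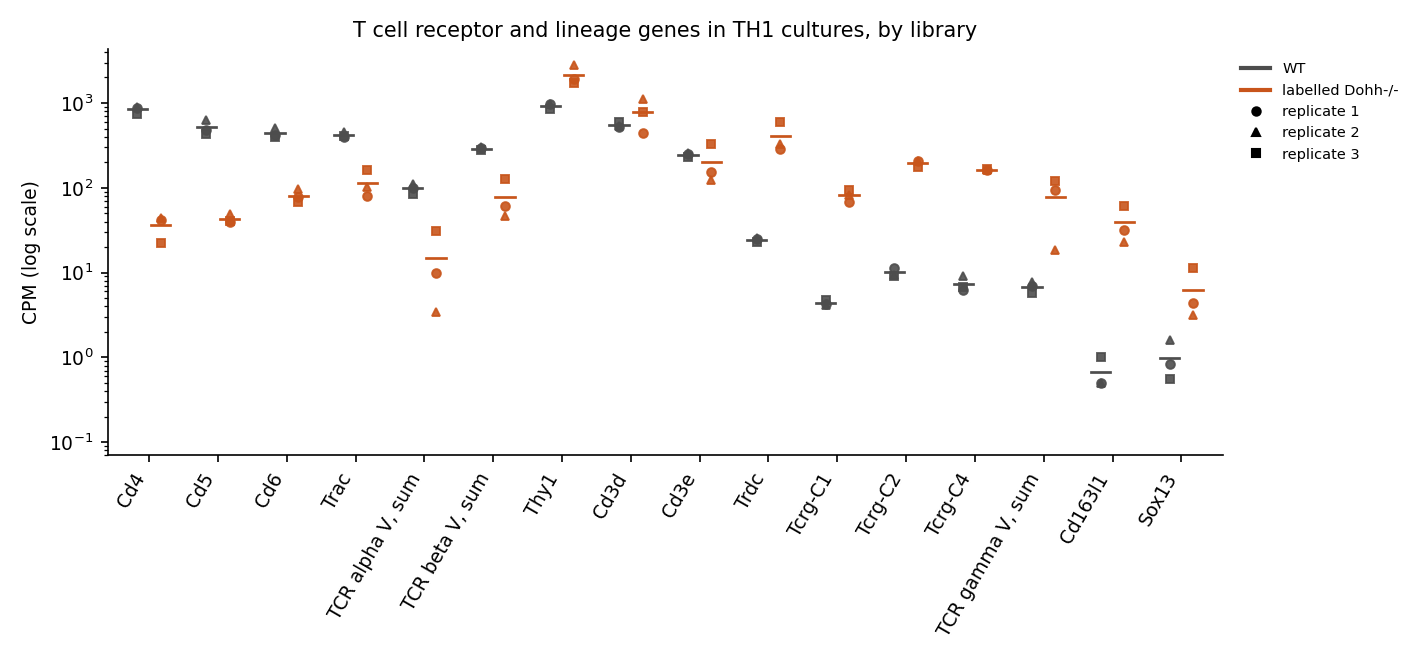
Level in CPM (log axis) of T cell identity genes and receptor chain sums in the 6 TH1 libraries, with 1 point per library, colour by labelled genotype and bars at the group means. Cd4, Cd5, Cd6 and the alpha and beta chains sit lower in the libraries labelled Dohh-/-, while Trdc, the gamma constant segments, Cd163l1 and Sox13 sit higher (Cd4 mean 842 ± 80.2 CPM in WT and 36.1 ± 12.2 in the libraries labelled Dohh-/-, SD, n = 3, Trdc mean 24.4 ± 1.41 CPM in WT and 403 ± 166 in the libraries labelled Dohh-/-, SD, n = 3).

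Some markers of cells that are not T cells were called higher. The 10 listed basophil and mast cell markers were called higher in the libraries labelled Dohh-/- with all libraries, 9 of them without KO2, and their summed level was 5.38 to 7.07 CPM in WT and 68.8, 357 and 413 CPM in KO1, KO2 and KO3. They include the mast cell protease gene Mcpt8, at 0.662, 0.498 and 0.224 CPM and 7.77, 142 and 37.7 CPM (log2 fold change 6.97 ± 1.25 SE, adjusted p = 0.000209, with 5.51 without KO2), and Cpa3, carboxypeptidase A3, at 0.911, 1.89 and 1.57 CPM and 25, 52.4 and 188 CPM (log2 fold change 5.94 ± 0.903 SE, adjusted p = 4.08e-05, with 4.75 without KO3). Of 6 megakaryocyte and platelet markers 5 were called higher (4 without KO2), with a summed level of 4.58 to 5.38 CPM in WT and 29.1 to 76.7 CPM in the libraries labelled Dohh-/-. Itga2b made up most of these sums, at 5.30, 4.58 and 5.27 CPM in WT and 24.4, 65.2 and 21.3 CPM in KO1, KO2 and KO3. Of 9 macrophage and neutrophil markers tested 3 were called higher, none of them without KO2 or without any of the WT libraries, and Ly6g fell (log2 fold change -3.27 ± 0.615 SE, adjusted p = 0.000304, with -4.57 without KO3). The neutrophil gene S100a9 was at 0 in every library but KO2, where it reached 82.5 CPM, and Lyz2, lysozyme, was at 1.02, 76.5 and 1.54 CPM in KO1, KO2 and KO3. The summed level of the macrophage and neutrophil list was 70.2 to 93.7 CPM in WT and 8.38, 238 and 34.4 CPM in KO1, KO2 and KO3. Ly6g, at 46.9, 69.6 and 67.5 CPM, and Cd68, at 22.6, 23.8 and 22.8 CPM, made up nearly all of the WT sum. The highest other value in a WT library was 0.336 CPM, and S100a8, S100a9 and Mpo were at 0 there. Of 7 dendritic cell and MHC class II genes tested 2 (1 without KO2 or KO3 or WT2 or WT3) were called higher, with sums of 212 to 232 CPM in WT and 75.0, 315 and 168 CPM in KO1, KO2 and KO3, and Siglech was at 0 throughout. H2-Ab1, which was not called, made up most of the WT sums, at 190, 187 and 173 CPM. Of 7 B cell genes 1 was called higher and 1 lower (sums 52.1 to 67.9 and 12.6 to 37.7 CPM), of 4 CD8+ T and NK cell genes 2 (1 without KO3) were higher and 1 (0 without KO1) lower (14.8 to 16.7 and 11.9 to 47.8 CPM), and of 3 erythroid genes 2 (1 without KO2 or WT1) were higher (0 to 0.336 and 2.54 to 6.00 CPM). Ighm, the immunoglobulin heavy chain, fell (log2 fold change -1.71 ± 0.3 SE, adjusted p = 9.22e-05), and Cd8b1, the CD8 beta chain, fell (log2 fold change -1.09 ± 0.238 SE, adjusted p = 0.00076, with -0.84 at adjusted p = 0.00837 and no longer called without KO1). Ighm made up most of the B cell sum in each library. The part of these cell types in the results below was not tested.

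Genes of the TH1 program moved in both directions. Of 22 listed TH1 genes tested, 11 rose and 3 fell, with a median log2 fold change of 1.06 (1.36 without KO2). Ifng, the defining cytokine of the subset, stood at 195, 239.8 and 271 CPM in WT and 2775, 4242 and 2346 CPM in the libraries labelled Dohh-/- (log2 fold change 3.73 ± 0.466 SE, adjusted p = 3.15e-06). Each library labelled Dohh-/- was above each WT library. Tbx21, which encodes T-bet, stood at 74.4, 111 and 80.9 CPM and 272, 267 and 589.8 CPM (log2 fold change 2.08 ± 0.322 SE, adjusted p = 2.64e-05), with KO3 the highest. Its paralog Eomes, the T-box factor of memory CD8+ T and NK cells, was low in WT, at 1.16, 1.89 and 2.47 CPM, and at 3.99, 8.36 and 9.27 CPM in the libraries labelled Dohh-/- (log2 fold change 1.97 ± 0.555 SE, adjusted p = 0.00572). Tnf, the tumour necrosis factor gene, was at 65.5, 74.3 and 80.1 CPM and 141, 104 and 361 CPM (log2 fold change 1.46 ± 0.314 SE, adjusted p = 0.000673, with 0.75 at adjusted p = 0.0059 and no longer called without KO3), and Fasl, a death ligand, at 22, 22.9 and 18.8 CPM and 33.2, 30.5 and 95.9 CPM (log2 fold change 1.32 ± 0.335 SE, adjusted p = 0.00263, with 0.59 at adjusted p = 0.0589 and no longer called without KO3). For both, KO1 and KO2 lay above every WT library and KO3 was the highest.

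The chemokine genes Ccl3, Ccl4 and Ccl5 rose. Ccl3 went from 9.85, 12.5 and 10.7 CPM to 792, 909.8 and 465 CPM (log2 fold change 6.04 ± 0.42 SE, adjusted p = 1.13e-09), Ccl4 from 20.9, 26.6 and 32.1 CPM to 521, 639 and 862 CPM (log2 fold change 4.67 ± 0.328 SE, adjusted p = 1.13e-09) and Ccl5 from 16.8, 24.1 and 18.8 CPM to 126, 316 and 160.5 CPM (log2 fold change 3.33 ± 0.338 SE, adjusted p = 1.84e-07). The groups did not overlap for any of these 3 chemokines. Both chains of the IL-18 receptor rose, Il18r1 (log2 fold change 1.72 ± 0.312 SE, adjusted p = 0.000133, with 1.10 without KO3) and Il18rap (log2 fold change 3.62 ± 0.464 SE, adjusted p = 4.79e-06, with 2.55 without KO3). Havcr2, the coinhibitory receptor TIM-3 of terminal TH1 cells, rose from 5.71, 3.29 and 6.62 CPM to 83.7, 67.7 and 213 CPM (log2 fold change 4.55 ± 0.443 SE, adjusted p = 1.35e-07, with 3.87 without KO3). A receptor chain for IL-12 and a receptor for IFN-γ-induced chemokines fell. Il12rb2, the signalling chain of the IL-12 receptor, stood at 995, 922 and 705 CPM in WT and 318, 78.7 and 289 CPM in the libraries labelled Dohh-/- (log2 fold change -1.93 ± 0.518 SE, adjusted p = 0.00453). Cxcr3, the chemokine receptor that marks TH1 cells, stood at 17, 20.8 and 20.2 CPM and 1.12, 2.37 and 3.42 CPM (log2 fold change -3.07 ± 0.314 SE, adjusted p = 1.93e-07). Lta, lymphotoxin alpha, was called lower with all libraries (log2 fold change -1.01 ± 0.38 SE, adjusted p = 0.0324, with -1.04 at adjusted p = 0.0635 and no longer called without KO1, -0.56 at adjusted p = 0.0879 and no longer called without KO3, -1.07 at adjusted p = 0.051 and no longer called without WT1, -0.89 at adjusted p = 0.0971 and no longer called without WT2 and -1.05 at adjusted p = 0.0526 and no longer called without WT3). Its call was also lost with the TH1 libraries alone (adjusted p = 0.179). The transcription factor genes Stat4, Runx3, Hlx and Bhlhe40 had log2 fold changes of -0.58, -0.11, 0.79 and -0.44 and were not called, nor was Il12rb1, the other IL-12 receptor chain (-0.19). Without KO3, Stat4 and Bhlhe40 were called lower (-1.49 and -1.27). Il2 was near the floor, at 0.248, 0.598 and 0.673 CPM in WT and 0.409, 0.631 and 0.882 CPM in the libraries labelled Dohh-/-.

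**Figure D2:**
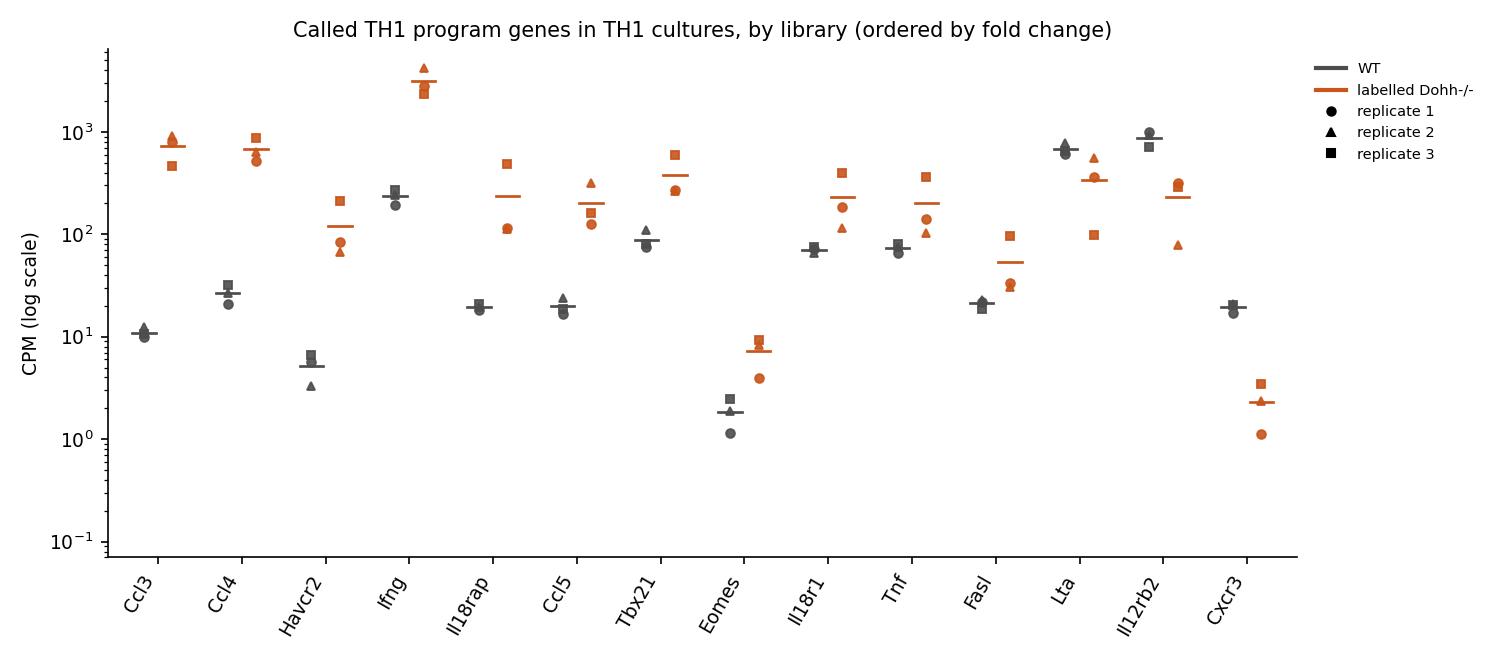
Level in CPM (log axis) of the 11 genes of the TH1 program called higher and the 3 called lower in each of the 6 libraries, with 1 point per library and bars at the group means. Ifng, Ccl3, Ccl4, Ccl5 and Havcr2 sit higher in every library labelled Dohh-/- than in any WT library, and Cxcr3 and Il12rb2 sit lower (Ifng mean 235 ± 38.1 CPM in WT and 3121 ± 994 in the libraries labelled Dohh-/-, SD, n = 3).

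Cytotoxic effector genes rose as a group. Granzymes are serine proteases that enter target cells through pores formed by perforin and start their death. Of 15 listed granzymes and cytotoxic effectors tested, 13 rose and none fell, with a median log2 fold change of 4.36 (5.43 without KO2, over 16 genes). Gzmb, granzyme B, stood at 1026, 1121 and 1227 CPM in WT and at 17916, 9325 and 12199 CPM in the libraries labelled Dohh-/- (log2 fold change 3.55 ± 0.433 SE, adjusted p = 1.89e-06). KO1 was the highest and the groups were far apart. Gzma, granzyme A, went from 34.4, 14.7 and 26.4 CPM to 1713, 3280.4 and 3023 CPM (log2 fold change 6.73 ± 0.44 SE, adjusted p = 4.84e-10). Gzmc went from 33, 20 and 26 CPM to 1480.5, 3329 and 4229 CPM (log2 fold change 6.84 ± 0.456 SE, adjusted p = 6.01e-10). Its neighbours on chromosome 14 were low in WT. Gzmd was at 2.24, 1.99 and 1.35 CPM in WT and 244, 605 and 1086 CPM in the libraries labelled Dohh-/- (log2 fold change 8.41 ± 0.67 SE, adjusted p = 4.79e-08, with 7.82 without KO3), Gzme at 0.497, 0.299 and 0.112 CPM and 114, 298 and 365 CPM (log2 fold change 9.60 ± 0.774 SE, adjusted p = 5.77e-08, with 10.20 without WT1), Gzmf at 1.9, 0.996 and 2.02 CPM and 92.1, 171 and 983 CPM (log2 fold change 7.97 ± 0.91 SE, adjusted p = 4.42e-06, with 6.32 without KO3), and Gzmg at 0.58, 0.498 and 0.112 CPM and 29.6, 75.9 and 720.0 CPM (log2 fold change 9.33 ± 1.28 SE, adjusted p = 2.7e-05, with 6.95 without KO3). Among the libraries labelled Dohh-/-, KO3 was the highest for each of these 4 genes and KO1 the lowest. Gzme and Gzmg had 1 to 7 counts in each WT library, so the size of their fold changes is uncertain. Prf1, perforin, rose from 92.2, 68.4 and 81.4 CPM to 1435, 805 and 1598 CPM (log2 fold change 3.99 ± 0.526 SE, adjusted p = 6.85e-06) and Nkg7, a granule membrane protein, from 176, 228 and 201 CPM to 1276, 2417 and 1480.2 CPM (log2 fold change 3.10 ± 0.29 SE, adjusted p = 6.44e-08). Gzmk, expressed by memory T cells, stood at 0.166, 0.598 and 0.336 CPM and 5.31, 4.42 and 13.1 CPM (log2 fold change 4.36 ± 0.69 SE, adjusted p = 3.21e-05, with 3.72 without KO3). Prf1, Nkg7 and Gzmk were named after their values were seen.

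The granzyme genes Gzmb, Gzmc, Gzmd, Gzme, Gzmf and Gzmg lie in a cluster on the minus strand of chromosome 14, and the last 5 of these have similar upstream sequences. The 150 bases before the annotated start of each are given here from RefSeq (GRCm38.p6), 5′ to 3′ on the gene's strand, because these genes rose in the libraries labelled Dohh-/-. Capitals mark matches, on either strand, to the letters TGTGGT, a core read by RUNX factors, and TGACGTCA, the palindrome read by CREB and ATF factors (CRE). The first is chr14:56262335-56262484, followed by chr14:56234658-56234807, chr14:56211408-56211557, chr14:56159580-56159729, chr14:56132594-56132743 and chr14:56120626-56120775.
Gzmb: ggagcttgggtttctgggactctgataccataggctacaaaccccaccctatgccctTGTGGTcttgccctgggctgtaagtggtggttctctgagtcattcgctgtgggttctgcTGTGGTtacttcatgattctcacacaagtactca
Gzmc: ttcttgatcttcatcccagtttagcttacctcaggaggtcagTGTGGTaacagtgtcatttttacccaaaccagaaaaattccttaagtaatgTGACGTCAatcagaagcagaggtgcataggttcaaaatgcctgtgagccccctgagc
Gzmf: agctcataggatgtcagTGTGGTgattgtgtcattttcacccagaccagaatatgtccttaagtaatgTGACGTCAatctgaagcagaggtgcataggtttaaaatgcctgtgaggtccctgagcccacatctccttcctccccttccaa
Gzmg: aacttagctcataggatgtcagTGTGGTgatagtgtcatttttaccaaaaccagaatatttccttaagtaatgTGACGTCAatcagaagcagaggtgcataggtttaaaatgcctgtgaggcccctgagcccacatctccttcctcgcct
Gzmd: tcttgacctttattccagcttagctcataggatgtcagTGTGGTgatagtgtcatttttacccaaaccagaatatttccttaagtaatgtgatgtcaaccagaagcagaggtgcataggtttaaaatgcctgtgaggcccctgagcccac
Gzme: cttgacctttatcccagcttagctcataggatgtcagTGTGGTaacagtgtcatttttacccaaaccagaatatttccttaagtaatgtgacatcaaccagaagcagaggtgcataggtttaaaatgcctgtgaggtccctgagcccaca
Gzmb held 2 matches to the RUNX letters and no CRE, Gzmc, Gzmf and Gzmg 1 of each, and Gzmd and Gzme 1 to the RUNX letters only. Gzmn, which lies between Gzmf and Gzmg (upstream bases chr14:56174600-56174749) and was not among the genes tested, held no match to either. Outside the cluster, the upstream bases of Gzma and Prf1 held 1 match to the RUNX letters and no CRE, and those of Gzmk, which also rose, held neither. In pairwise global alignments, the sequences of Gzmc, Gzmd, Gzme, Gzmf and Gzmg were 74.0% to 95.3% identical, highest for Gzmd with Gzme, and 52.0% to 60% identical to Gzmb. Of 27025 promoters of the same length, 8.53% held the RUNX letters and 1.44% the CRE letters. Among the promoters of tested genes the shares were 6.22% and 2.48%, among those of genes called higher 8.68% and 2.58%, and among those of genes called lower 5.83% and 1.92%. The T-box letters GGTGTGA, read by T-bet, were in 1.94% of all promoters, 1.73% of those of tested genes, 1.86% of those of genes called higher and 1.64% of those of genes called lower. For the AP-1 letters TGANTCA these shares were 4.27%, 2.66%, 2.92% and 2.54%. The T-box and AP-1 letters were not marked in the sequences above. The Gzmb window holds tgagtca, which matches the AP-1 letters, and the Gzmk window holds ggtgtga, the T-box letters. A match shows only that the letters are present in this window. The genes of this cluster are related copies, and the split of reads among Gzmc, Gzmd, Gzme, Gzmf and Gzmg is uncertain.

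Receptors of NK cells, which cytotoxic CD8+ and γδ T cells also carry, rose widely as well. Of 19 listed NK receptor genes tested 18 rose and 1 fell, with a median log2 fold change of 3.75 (3.79 without KO2). Cd160, a receptor for HVEM and class I molecules, went from 1.32, 0.697 and 1.57 CPM to 35.4, 62.8 and 70.7 CPM (log2 fold change 5.54 ± 0.39 SE, adjusted p = 1.13e-09). Klrg1, a marker of terminally differentiated killer cells, went from 0.662, 0.299 and 0.224 CPM to 6.54, 7.1 and 53.6 CPM (log2 fold change 5.73 ± 0.858 SE, adjusted p = 2.72e-05, with 4.03 without KO3 and 6.37 without WT1), and Cd244a, the receptor 2B4, from 1.66, 0.996 and 1.12 CPM to 10, 11 and 88.5 CPM (log2 fold change 4.83 ± 0.72 SE, adjusted p = 2.37e-05, with 3.04 without KO3). For these last 2 receptors KO3 stood far above KO1 and KO2, which in turn stood above all WT libraries. The adaptor genes Tyrobp (log2 fold change 4.10 ± 1.03 SE, adjusted p = 0.00322, with 3.09 without KO3 and 4.78 without WT1) and Fcer1g (log2 fold change 4.58 ± 0.645 SE, adjusted p = 1.45e-05), through which activating receptors signal, and Klrk1, which encodes NKG2D (log2 fold change 3.73 ± 0.309 SE, adjusted p = 1.19e-08), rose as well and were named after their values were seen. Cd226, an activating receptor of T and NK cells, was the exception and fell from 23, 23.8 and 20.7 CPM to 2.76, 2.05 and 6.29 CPM (log2 fold change -2.58 ± 0.368 SE, adjusted p = 1.11e-05, with -3.19 without KO3). The defining NK cell gene Klrb1c, NK1.1, was at 0.248, 0.299 and 0.112 CPM in WT and 0.409, 0.789 and 15.6 CPM in the libraries labelled Dohh-/-, mostly in KO3. Its fitted log2 fold change was 4.58 with all libraries, and without KO3 it was 1.33 at adjusted p = 0.249 and no longer called. The WT values lay at or under the floor of each library, so the size of the change is uncertain.

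**Figure D3:**
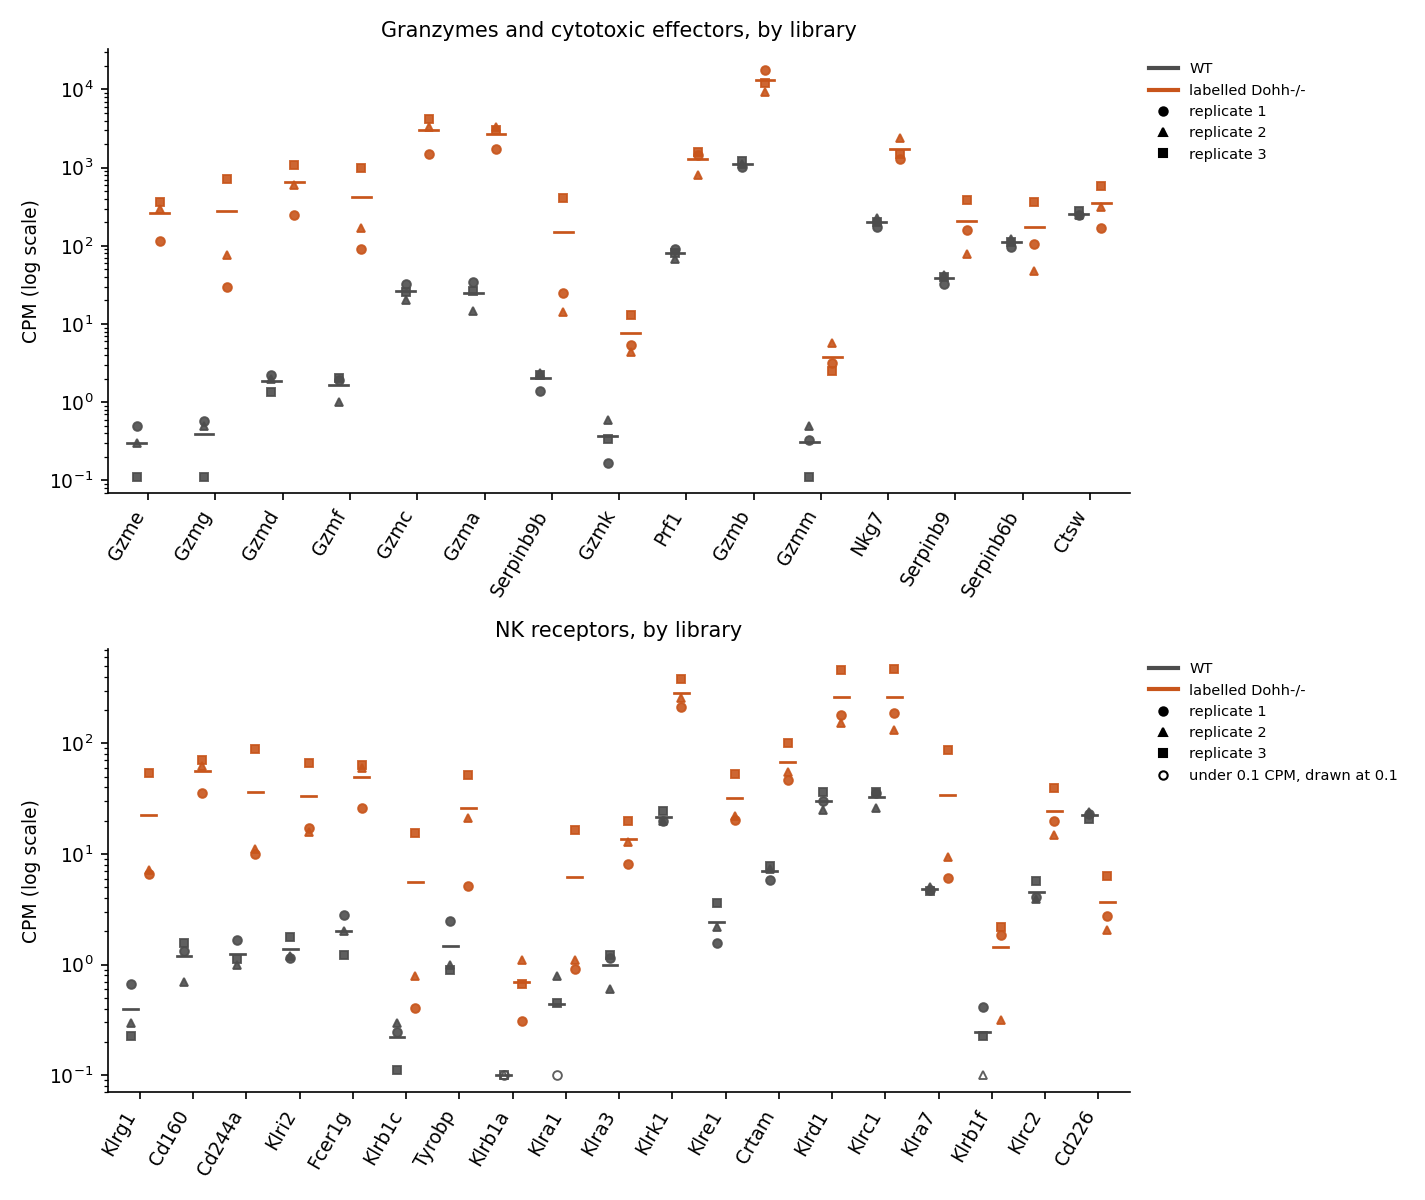
Level in CPM (log axis) of 15 granzymes and cytotoxic effectors (one panel) and 19 NK receptor genes (the other) in each of the 6 libraries, with 1 point per library and bars at the group means. Values under 0.1 CPM are drawn as open points at 0.1. The 13 members called higher sit above WT in the libraries labelled Dohh-/- (Gzmb mean 1125 ± 101 CPM in WT and 13146 ± 4373 in the libraries labelled Dohh-/-, SD, n = 3), and Cd226 alone among the NK receptors sits lower.

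Other chemokines rose from near the floor. Of 12 listed chemokine genes tested 6 rose and none fell, with a median log2 fold change of 5.24 (3.27 without KO2, over 13 genes). Xcl1, the lymphotactin that attracts cross-presenting dendritic cells, was at 0.166, 0.299 and 0 CPM in WT and 98.6, 207 and 295 CPM in the libraries labelled Dohh-/-, at least 679-fold higher against the floor averaged over the WT libraries. Ccl9 went from 0.994, 1.1 and 2.8 CPM to 61.2, 100.0 and 36.4 CPM (log2 fold change 5.37 ± 0.667 SE, adjusted p = 4e-06, with 5.96 without WT3) and the platelet chemokine gene Pf4 was called higher (adjusted p = 0.000102), at 0.331, 0.299 and 0 CPM in WT, near or under the floor of each library, and 36.2, 84.9 and 21.2 CPM in the libraries labelled Dohh-/-. Ccl6, a myeloid chemokine, was at 1.53, 52.7 and 5.74 CPM in the libraries labelled Dohh-/-, mostly in KO2. Its fitted log2 fold change was 7.97 with all libraries, and without KO2 it was 5.55 at adjusted p = 0.0815 and no longer called. Among chemokine receptors and homing genes 4 (2 without KO3) of 13 tested rose and 6 fell. Cxcr6, the receptor for CXCL16, rose from 11.5, 9.17 and 10.1 CPM to 127, 105 and 618 CPM (log2 fold change 4.78 ± 0.568 SE, adjusted p = 2.27e-06, with 3.50 without KO3), and Ccr2, a receptor of inflammatory cells, from 17.9, 12.3 and 14.9 CPM to 34.6, 27.5 and 239 CPM (log2 fold change 2.74 ± 0.692 SE, adjusted p = 0.0031, with 1.06 at adjusted p = 0.0824 and no longer called without KO3). Ccr7, which guides naive T cells into lymph nodes, fell from 458, 567 and 426 CPM to 152, 188 and 77.4 CPM (log2 fold change -1.80 ± 0.262 SE, adjusted p = 1.38e-05), and S1pr1, which lets them leave, fell (log2 fold change -1.71 ± 0.387 SE, adjusted p = 0.00114).

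TH2 and TH17 genes moved in both directions. Of 16 TH2 genes tested 4 (5 without WT2 or WT3) rose and 5 fell. Il10, an anti-inflammatory cytokine that effector cells of several subsets make, rose from 20.9, 17.4 and 25.7 CPM to 206, 153 and 93.9 CPM (log2 fold change 2.82 ± 0.305 SE, adjusted p = 3.95e-07). Il13, a TH2 effector cytokine, stood at 7.45, 5.58 and 4.04 CPM and 22.5, 14 and 11 CPM (log2 fold change 1.47 ± 0.329 SE, adjusted p = 0.000953), and Il1rl1, the IL-33 receptor of TH2 cells and mast cells, at 2.57, 3.69 and 1.57 CPM and 55, 32.5 and 81.4 CPM (log2 fold change 4.42 ± 0.609 SE, adjusted p = 1.07e-05). Gata3, the defining transcription factor of TH2 cells, was at 10.4, 8.27 and 9.76 CPM in WT and 4.7, 9 and 8.38 CPM in the libraries labelled Dohh-/-, with overlapping groups (log2 fold change -0.38 ± 0.243 SE, adjusted p = 0.201). Il4 and Il5 were near the floor in every library, at no more than 1.3 and 0.818 CPM. Il5 was called higher without WT3 (2.94, adjusted p = 0.0276) but not with all libraries. Among the members that fell, Maf, a transcription factor of IL-4 and IL-10 producing cells, went from 56.3, 33.3 and 44.1 CPM to 6.95, 4.42 and 7.94 CPM (log2 fold change -2.77 ± 0.375 SE, adjusted p = 6.58e-06), and Il24, a cytokine of the IL-10 family, stood at 502, 463 and 475 CPM and 158, 170.1 and 2.65 CPM (log2 fold change -2.12 ± 0.718 SE, adjusted p = 0.0201, with -1.54 without KO3), with KO3 far below KO1 and KO2. The call of Il24 was lost when only the TH1 libraries were fitted (-2.10, adjusted p = 0.143). The TH2 chemokine receptor genes Ccr4 (log2 fold change -2.60 ± 0.451 SE, adjusted p = 0.000105, with -3.57 without KO1) and Ccr8 (log2 fold change -3.03 ± 0.388 SE, adjusted p = 3.35e-06) fell.

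Of 15 TH17 genes tested 4 rose and 4 fell. Il17a, the defining cytokine, was at 2.24, 0.897 and 1.79 CPM in WT and 14.9, 8.68 and 13.9 CPM in the libraries labelled Dohh-/- (log2 fold change 2.91 ± 0.622 SE, adjusted p = 0.000746), and Il22 at 1.66, 0.996 and 2.47 CPM and 6.44, 7.26 and 8.05 CPM (log2 fold change 2.09 ± 0.63 SE, adjusted p = 0.00924). Il17f stayed near the floor, with a log2 fold change of 0.64. Il6ra, the IL-6 receptor that starts TH17 differentiation, was almost absent from the libraries labelled Dohh-/-, at 52.7, 42.8 and 56.6 CPM in WT and 0.92, 1.1 and 0.11 CPM there (log2 fold change -6.19 ± 0.475 SE, adjusted p = 4.49e-09). Of 15 Treg genes tested 1 rose and 10 fell, with a median log2 fold change of -1.16 (-1.40 without KO2). Lrrc32, which encodes GARP, the carrier of latent TGF-β, went from 123, 122 and 110.2 CPM to 4.19, 2.68 and 2.32 CPM (log2 fold change -5.25 ± 0.333 SE, adjusted p = 3.16e-10) and Izumo1r, folate receptor 4, from 125, 152 and 131 CPM to 8.99, 26.5 and 4.85 CPM (log2 fold change -3.37 ± 0.369 SE, adjusted p = 5.26e-07, with -4.29 without KO2). Foxp3, which specifies the subset, was low in these TH1 cultures at 6.87, 8.37 and 7.51 CPM and lower still at 0.715, 3 and 0.11 CPM (log2 fold change -2.74 ± 0.649 SE, adjusted p = 0.00173, with -4.12 without KO2 and -2.15 without KO3). Ctla4, a coinhibitory receptor (log2 fold change -1.51 ± 0.356 SE, adjusted p = 0.00147), and Ikzf4, a partner of Foxp3 (log2 fold change -1.79 ± 0.168 SE, adjusted p = 6.53e-08), fell. Ikzf2, which encodes Helios, was the member that rose (log2 fold change 2.01 ± 0.395 SE, adjusted p = 0.000291, with 1.15 without KO3). Il2ra, the high-affinity chain of the IL-2 receptor, was at 2729, 2703 and 2371 CPM and 3065, 2403 and 2071 CPM, with overlapping groups (log2 fold change -0.05 ± 0.285 SE, adjusted p = 0.898).

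Genes of T cell state moved in both directions. Of 12 coinhibitory receptors and TOX factors tested 1 (2 without KO1 or KO2) rose and 4 fell, Havcr2 being counted on the TH1 list and not here. Pdcd1, PD-1, rose from 35.4, 44.5 and 35.4 CPM to 128, 143 and 348 CPM (log2 fold change 2.42 ± 0.296 SE, adjusted p = 1.87e-06, with 1.83 without KO3), whereas Btla fell from 166, 192 and 170.5 CPM to 11.4, 9.47 and 5.29 CPM (log2 fold change -4.33 ± 0.325 SE, adjusted p = 3.1e-09), Cd200 fell (log2 fold change -3.67 ± 0.204 SE, adjusted p = 7.82e-11) and Tox, the transcription factor of exhausted T cells, fell (log2 fold change -3.67 ± 0.534 SE, adjusted p = 1.36e-05). Of 14 naive and memory genes 2 (1 without KO3 or WT2) rose and 5 (8 without KO3) fell. Id2, which restrains E proteins in effector cells, rose from 129, 115 and 150.3 CPM to 421, 214 and 947 CPM (log2 fold change 2.01 ± 0.343 SE, adjusted p = 7.76e-05, with 1.28 without KO3). Satb1, a chromatin organizer of naive and helper T cells, fell from 1212, 1166 and 1023 CPM to 390.0, 204 and 334 CPM (log2 fold change -1.87 ± 0.352 SE, adjusted p = 0.00019). Of 15 STAT, JAK and SOCS genes none rose and 6 fell, with a median of -0.75. They include Jak2 (log2 fold change -1.59 ± 0.219 SE, adjusted p = 7.38e-06), the kinase of the IL-12 receptor, Stat2 (log2 fold change -1.52 ± 0.205 SE, adjusted p = 6.18e-06) and the feedback inhibitor Socs3 (log2 fold change -1.62 ± 0.266 SE, adjusted p = 4.61e-05). Of 23 activation factors 12 (6 without KO3) rose and 2 (4 without KO3) fell. Nr4a2, an orphan receptor induced by antigen, stood at 18.3, 17.9 and 16.3 CPM and 46.9, 27.6 and 138 CPM (log2 fold change 2.02 ± 0.378 SE, adjusted p = 0.000189, with 1.10 without KO3), while Egr2 and Egr3, also antigen-induced, were high in KO3 alone. Egr2 stood at 7.2, 6.77 and 8.52 CPM and 9.1, 6.47 and 58.9 CPM (log2 fold change 1.74 ± 0.536 SE, adjusted p = 0.0112, with 0.07 at adjusted p = 0.857 and no longer called without KO3). Egr3 stood at 3.89, 5.58 and 4.26 CPM and 7.26, 0.947 and 67.4 CPM (log2 fold change 2.47 ± 0.855 SE, adjusted p = 0.022, with -0.09 at adjusted p = 0.92 and no longer called without KO3, 2.38 at adjusted p = 0.0752 and no longer called without WT1 and 2.42 at adjusted p = 0.0629 and no longer called without WT3). Both calls were lost when only the TH1 libraries were fitted (adjusted p = 0.107 for Egr2 and 0.121 for Egr3). Irf4, which scales effector differentiation to signal strength, fell from 721, 694 and 601 CPM to 202, 188 and 190.5 CPM (log2 fold change -1.79 ± 0.216 SE, adjusted p = 1.57e-06), and Fosl2, an AP-1 member, fell (log2 fold change -1.77 ± 0.288 SE, adjusted p = 4.42e-05).

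Most cell cycle genes of S phase rose. Of 33 tested 22 rose and none fell, with a median log2 fold change of 1.42 (1.17 without KO2). Rrm2, the ribonucleotide reductase subunit limiting for DNA synthesis, stood at 78.6, 98.3 and 77.6 CPM in WT and 614, 509 and 214 CPM in the libraries labelled Dohh-/- (log2 fold change 2.39 ± 0.272 SE, adjusted p = 7.71e-07), and the thymidylate synthase gene Tyms at 14.4, 15.7 and 13.7 CPM and 113, 154 and 38.8 CPM (log2 fold change 2.80 ± 0.317 SE, adjusted p = 7.52e-07). KO1 and KO2 were well above KO3, which still lay above WT. Of 30 genes of G2 and M phase 5 (2 without KO1 or KO2, 3 without WT3, 8 without KO3) were higher and none (1 without KO1) lower, with a median of 0.51. Cdk1, the mitotic kinase, stood at 62.5, 56 and 73.7 CPM and 197, 209.6 and 114 CPM (log2 fold change 1.44 ± 0.195 SE, adjusted p = 6.36e-06), and Birc5, survivin, at 48.4, 50.9 and 59.4 CPM and 222, 343 and 91.2 CPM (log2 fold change 2.05 ± 0.309 SE, adjusted p = 2.01e-05). Aurka and Plk1, also mitotic kinases, were below the WT libraries in KO3 and above them in KO1 and KO2. Aurka had values of 60.5, 55.3 and 50.5 CPM and 147, 147 and 49.1 CPM (log2 fold change 1.04 ± 0.257 SE, adjusted p = 0.00215, with 0.85 at adjusted p = 0.0165 and no longer called without KO1, 0.83 at adjusted p = 0.0176 and no longer called without KO2 and 0.98 at adjusted p = 0.0124 and no longer called without WT3), and Plk1 of 64.8, 65.4 and 49 CPM and 181, 129.7 and 48.4 CPM (log2 fold change 1.0 ± 0.279 SE, adjusted p = 0.00525, with 0.60 at adjusted p = 0.0715 and no longer called without KO1, 0.95 at adjusted p = 0.0193 and no longer called without KO2 and 0.88 at adjusted p = 0.031 and no longer called without WT3). Both calls were lost with the TH1 libraries alone (adjusted p = 0.0705 for Aurka and 0.0988 for Plk1). Among inhibitors, Cdkn2a, which encodes p16 and ARF, came up from 0.0828, 0.399 and 0.561 CPM to 16.2, 30.1 and 5.85 CPM (log2 fold change 5.66 ± 0.753 SE, adjusted p = 5.06e-06, with 5.02 without KO2), and Cdkn1b, p27, fell from 80.1, 62 and 79 CPM to 27.6, 17.7 and 21.5 CPM (log2 fold change -1.72 ± 0.232 SE, adjusted p = 6.07e-06). Of 25 p53 targets 1 (2 without KO2 or KO3, 3 without KO1) rose and 3 (5 without KO3 or WT3) fell.

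Many genes of the stress response and protein folding rose. Of 28 genes of the integrated stress response, by which cells meet amino acid shortage and stalled translation, 12 rose and 1 fell, with a median of 0.74 (0.62 without KO2). Phgdh, the first enzyme of serine synthesis, stood at 141, 165 and 129.8 CPM in WT and 639.6, 958 and 227 CPM in the libraries labelled Dohh-/- (log2 fold change 2.06 ± 0.326 SE, adjusted p = 3.2e-05), and Asns, asparagine synthetase, at 55.6, 58.2 and 50.4 CPM and 219, 302 and 109.5 CPM (log2 fold change 1.94 ± 0.309 SE, adjusted p = 3.58e-05). KO3 was the lowest of the libraries labelled Dohh-/- for both and lay above every WT library. Shmt2, a mitochondrial serine hydroxymethyltransferase, rose (log2 fold change 1.78 ± 0.288 SE, adjusted p = 4.18e-05), and Atf4, the factor that drives the response, had a log2 fold change of 1.23 and was named after its value was seen. Of 22 genes of the unfolded protein response 10 rose and none fell, with a median of 0.92 (0.97 without KO2). Creld2, a folding factor of the endoplasmic reticulum, stood at 19.8, 20.5 and 20.6 CPM and 149, 221 and 59.2 CPM (log2 fold change 2.81 ± 0.331 SE, adjusted p = 1.27e-06), and the chaperone genes Sdf2l1 (log2 fold change 2.44 ± 0.394 SE, adjusted p = 4.6e-05) and Dnajb11 (log2 fold change 1.96 ± 0.174 SE, adjusted p = 2.82e-08) rose as well. Of 20 cytosolic aminoacyl-tRNA synthetase genes 8 (4 without KO2, 14 without KO3) rose and none fell, with Hars (log2 fold change 1.45 ± 0.227 SE, adjusted p = 2.85e-05), Rars (log2 fold change 1.3 ± 0.153 SE, adjusted p = 1.27e-06) and Tars (log2 fold change 1.26 ± 0.192 SE, adjusted p = 2.25e-05) among them.

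Genes of mitochondria, ribosomes and the proteasome rose in numbers that depended on KO2. Of 74 nuclear genes of the respiratory chain 48 (18 without KO2) rose and none fell, with a median of 1.23 (0.68 without KO2), and of 74 mitochondrial ribosomal proteins 45 (19 without KO2) rose, with a median of 1.16 (0.75 without KO2). Mrpl12 stood at 72.4, 87.7 and 85.7 CPM in WT and 254, 649 and 117 CPM in the libraries labelled Dohh-/- (log2 fold change 2.05 ± 0.422 SE, adjusted p = 0.000519, with 1.18 without KO2), with KO2 far above KO1 and KO3. Cycs, cytochrome c, had a log2 fold change of 2.31 (1.98 without KO2) and was named after its value was seen. Of 8 messenger RNAs of the mitochondrial genome tested none rose and 1 fell, mt-Co1, a subunit of complex IV, at 9631, 8736 and 7909.8 CPM in WT and 3751, 1147 and 4775 CPM in the libraries labelled Dohh-/- (log2 fold change -1.44 ± 0.329 SE, adjusted p = 0.00111). Its call was lost when only the TH1 libraries were fitted (-1.44, adjusted p = 0.0525), and without KO3 1 of the 8 rose. Of 31 proteasome subunits 24 (17 without KO2) rose and none fell, with a median of 1.5 (1.13 without KO2), and of 36 ribosome biogenesis genes 21 (15 without KO2) rose and none fell, with a median of 1.08 (0.94 without KO2). All 64 cytosolic ribosomal protein genes tested had positive log2 fold changes but 4 (0 without KO2, 16 without KO3, 18 without KO1) were called, with a median of 0.64 (0.14 without KO2).

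The length of the transcripts moved with these differences. When the tested genes with a length and a WT mean of at least 10 CPM were split into 5 bins of 1763 to 1766 genes by the exonic bases of the gene, the median log2 fold change was 0.53 in the shortest bin (57 to 2642 bases) and fell through 0.16, -0.03 and -0.19 to -0.38 in the longest (7892 to 123179 bases). Without KO2 the medians were 0.30, 0.13, 0.01, -0.07 and -0.26. Against the mean of the WT libraries, the medians of the shortest and longest bins were 0.83 and -0.83 in KO2, 0.31 and -0.36 in KO1 and 0.21 and -0.17 in KO3. The WT libraries ranged from -0.11 to 0.07 in the shortest bin and from -0.07 to 0.09 in the longest. Genes called higher numbered 495 in the shortest bin and 63 in the longest, and without KO2 265 and 56. Genes called lower numbered 163 in the shortest bin and 331 in the longest, and without KO2 168 and 239. The median exonic length was 1814.5 bases over the respiratory chain list, 1923.5 over cytosolic and 2394 over mitochondrial ribosomal proteins, and 1389 over granzymes and cytotoxic effectors, against 4110 over all genes tested. Longer medians were found for some lists in which more genes fell than rose. They were 6419 over STAT, JAK and SOCS genes, 7377 over PRC2 and DNA methylation genes and 6044 over naive and memory genes. Other such lists had shorter medians, with 3453 over the T cell receptor complex and identity and 3372 over coinhibitory receptors and TOX factors. Some lists with higher calls only had longer ones, with 4268 over S phase genes and 4840 over aminoacyl-tRNA synthetases. The part of transcript length in the calls of these lists was not tested.

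**Figure D4:**
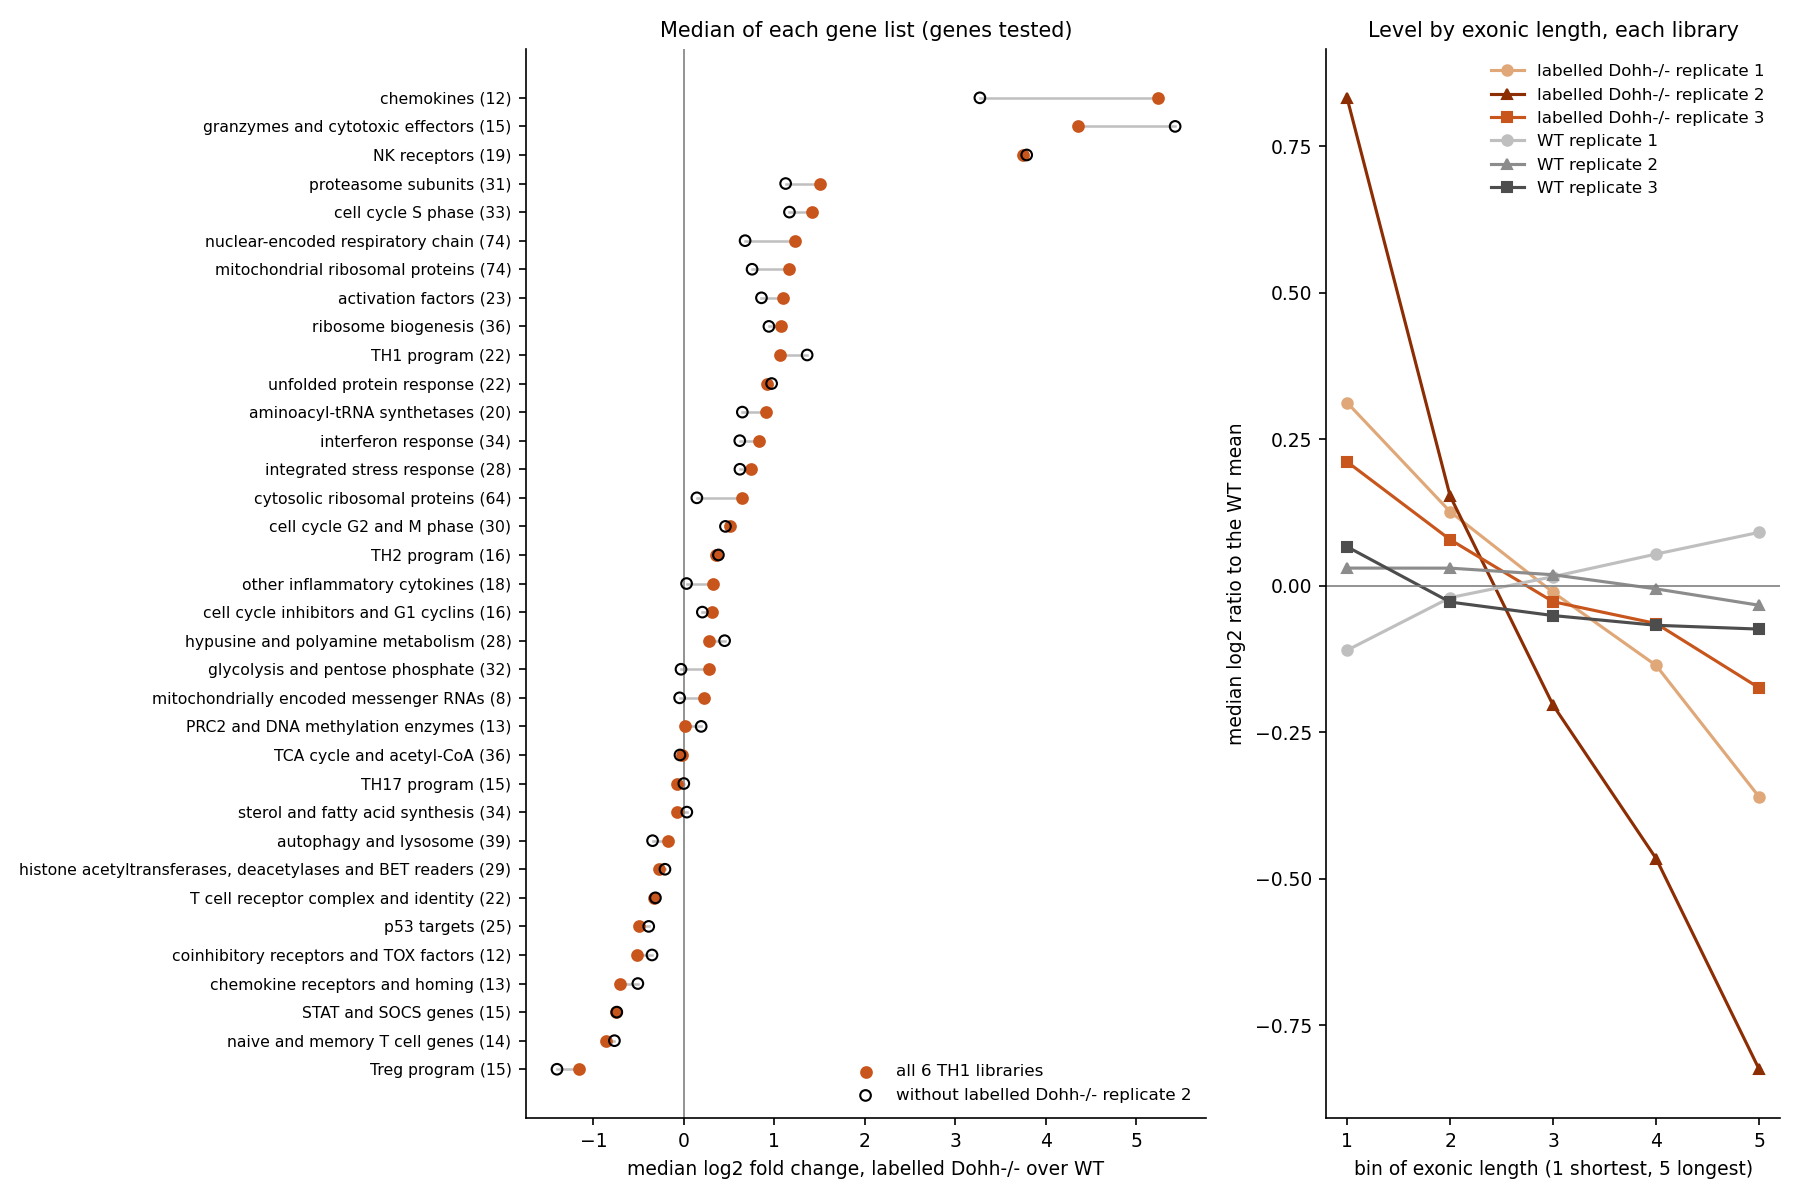
Left, median log2 fold change of each of 35 gene lists with all 6 libraries and without KO2. Right, median log2 ratio of each library to the WT mean (pseudocount of 1 CPM) by bin of exonic length over genes at 10 CPM or more in WT, with 1 line per library. Granzymes, NK receptors and chemokines have the highest medians with and without KO2, and the KO2 line runs from 0.83 in the shortest bin to -0.83 in the longest.

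Other lists of metabolism and chromatin held calls in both directions, except that of PRC2 and DNA methylation genes. Of 32 genes of glycolysis and the pentose phosphate pathway 6 (1 without KO2) rose and 7 (4 without KO2) fell. Taldo1, transaldolase, rose from 78.4, 80.5 and 73.8 CPM to 242, 352 and 159 CPM (log2 fold change 1.69 ± 0.249 SE, adjusted p = 1.53e-05). Ldha, the lactate dehydrogenase subunit of glycolytic cells, was at 1992, 2132 and 2105 CPM and 4603, 5810.5 and 2777 CPM (log2 fold change 1.08 ± 0.204 SE, adjusted p = 0.000193, with 0.83 at adjusted p = 0.00139 and no longer called without KO2), while Ldhb fell (log2 fold change -2.11 ± 0.277 SE, adjusted p = 4.28e-06), as did the neuronal-type enolase gene Eno2 (log2 fold change -2.99 ± 0.293 SE, adjusted p = 1.11e-07) and the muscle-type phosphofructokinase gene Pfkm (log2 fold change -1.62 ± 0.151 SE, adjusted p = 5.96e-08). Of 36 TCA cycle and acetyl-CoA genes 2 (1 without KO1 or KO2 or WT1) rose and 1 (2 without KO1 or KO3 or WT1 or WT3) fell, the latter being Pdk2, a kinase that turns off pyruvate dehydrogenase (log2 fold change -2.15 ± 0.396 SE, adjusted p = 0.000155). Of 34 sterol and fatty acid synthesis genes 1 (0 without KO2, 2 without KO3) rose and 1 (2 without KO3) fell. Of 29 histone acetyltransferases, deacetylases and BET readers 1 (0 without KO2) rose and 4 fell, among them the class IV deacetylase gene Hdac11 (log2 fold change -3.14 ± 0.529 SE, adjusted p = 6.15e-05, with -3.84 without KO3) and the acetyltransferase gene Kat6b (log2 fold change -1.51 ± 0.218 SE, adjusted p = 1.25e-05). Of 13 PRC2 and DNA methylation genes none (2 without KO3) rose and 4 (6 without KO3) fell, among them Jarid2, a PRC2 cofactor, from 162, 149.7 and 151 CPM to 38.4, 24.8 and 51.8 CPM (log2 fold change -2.0 ± 0.204 SE, adjusted p = 1.83e-07), and Tet2, a methylcytosine dioxygenase (log2 fold change -1.34 ± 0.281 SE, adjusted p = 0.000521). Of 39 autophagy and lysosome genes 1 (2 without KO3) rose and 6 (3 without KO2) fell. Ctsd, cathepsin D, was the one that rose (log2 fold change 2.13 ± 0.253 SE, adjusted p = 1.37e-06), and the autophagy kinase gene Ulk1 fell (log2 fold change -1.49 ± 0.213 SE, adjusted p = 1.1e-05).

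Of 34 interferon response genes tested 8 rose and 2 (0 without KO1 or KO2 or WT2, 4 without KO3) fell, with a median of 0.84 (0.62 without KO2). Mx1 and Isg15, induced by type I interferon, went from 0.414, 0.996 and 0.897 CPM to 4.29, 5.05 and 24.5 CPM (log2 fold change 3.88 ± 0.653 SE, adjusted p = 6.16e-05, with 2.61 without KO3) and from 2.73, 4.18 and 7.07 CPM to 16.2, 23.2 and 23.4 CPM (log2 fold change 2.18 ± 0.416 SE, adjusted p = 0.000222). Usp18, which removes ISG15 from proteins, rose (log2 fold change 2.16 ± 0.284 SE, adjusted p = 4.47e-06). Gbp2, an IFN-γ-induced GTPase, was called lower with all libraries (log2 fold change -1.14 ± 0.387 SE, adjusted p = 0.0186, with -1.07 at adjusted p = 0.0671 and no longer called without KO1, -1.13 at adjusted p = 0.0659 and no longer called without KO2 and -1.08 at adjusted p = 0.0564 and no longer called without WT2).

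The largest increases with groups that did not overlap were led by the granzymes, Xcl1 and basophil and platelet genes described above. Examples that belong to none of them were Gpx8, a peroxidase of the endoplasmic reticulum, at 0.414, 0.299 and 0.224 CPM in WT and 29.2, 43.7 and 15 CPM in the libraries labelled Dohh-/- (log2 fold change 6.46 ± 0.533 SE, adjusted p = 2.82e-08), and Nrgn, neurogranin, at 0.0828, 0.199 and 0.112 CPM and 3.47, 9.15 and 34.4 CPM, at least 53.2-fold higher against the floor, with a fitted log2 fold change of 6.80 that was 5.45 without KO3. Ecm1, a secreted matrix protein made by TH2 cells, fell from 2006, 1396 and 1456 CPM to 41.8, 67.9 and 74.7 CPM (log2 fold change -4.72 ± 0.317 SE, adjusted p = 6.01e-10). The largest decreases included Gipr, a receptor of an incretin hormone, which went from 211, 153 and 187 CPM to 1.33, 2.84 and 7.06 CPM (log2 fold change -5.60 ± 0.768 SE, adjusted p = 1.38e-05, with -6.52 without KO3), Adamtsl4, a microfibril-associated protein, from 129.6, 84.1 and 92.2 CPM to 1.23, 0.789 and 1.32 CPM (log2 fold change -6.46 ± 0.421 SE, adjusted p = 4.82e-10), and Sema3b, a guidance cue, from 51.7, 69 and 60.8 CPM to 0.715, 0.473 and 0.993 CPM (log2 fold change -6.32 ± 0.447 SE, adjusted p = 4.05e-09). For each of these genes the groups were far apart. Notch3 fell (log2 fold change -6.32 ± 0.792 SE, adjusted p = 4.27e-06, with -7.81 without KO3), and Ldhd, a lactate dehydrogenase of the D form, was at least 28.8-fold lower with KO1 and KO2 at 0. Among abundant genes Lgals1, galectin 1 (log2 fold change 1.90 ± 0.357 SE, adjusted p = 0.000191, with 1.25 without KO2), and Tmsb4x, an actin-binding peptide (log2 fold change 1.42 ± 0.264 SE, adjusted p = 0.000164), rose.

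The effect in TH1 cells was then compared with the effect of the same labelled genotype in TH2, TH17 and Treg cells of the same table, 3 libraries labelled Dohh-/- and 3 WT in each. By the test of the difference between the TH1 effect and the mean of the other 3 effects, 117 genes (0.842% of those tested) were higher in TH1 and 423 (3.04%) were lower, and without KO2 these were 166 and 356. Leaving out 1 TH1 library moved the 540 calls between 329 without WT1 and 1233 without KO3. Of the 22 TH1 genes 1 was higher and 4 were lower, and of the 15 granzymes and effectors 2 were lower. Ifng had log2 fold changes of 3.73 in TH1, 7.99 in TH2, 6.37 in TH17 and 5.58 in Treg cells, a difference of -2.91 ± 0.517 SE (adjusted p = 0.00192). Its WT level was 235 ± 38.1 CPM in TH1, 2.98 ± 0.634 CPM in TH2, 2.35 ± 0.27 CPM in TH17 and 4.84 ± 1.46 CPM in Treg cells (SD, n = 3), and its level in libraries labelled Dohh-/- 3121 ± 994 CPM in TH1, 766 ± 636 CPM in TH2, 194 ± 118 CPM in TH17 and 228 ± 33.6 CPM in Treg cells (SD, n = 3). Tbx21 had 2.08, 3.02, 4.61 and 3.88, a difference of -1.75 ± 0.373 SE (adjusted p = 0.00725), and Gzmb 3.55, 5.10, 5.67 and 7.96, a difference of -2.70 ± 0.468 SE (adjusted p = 0.00146). In the same order of subsets, mean Tbx21 was 88.7, 9.32, 2.43 and 4.71 CPM in WT. In libraries labelled Dohh-/- mean Tbx21 was 376, 76.3, 60.5 and 69.7 CPM. Mean Gzmb was 1125, 329, 16.1 and 22.1 CPM in WT and 13146, 11260, 827 and 5504 CPM in libraries labelled Dohh-/-. The effects on Cxcr3 were -3.07, -1.02, 1.19 and 1.48, a difference of -3.62 ± 0.353 SE (adjusted p = 4.62e-06). Hlx, a homeobox factor that works with T-bet, differed by -3.27 ± 0.638 SE (adjusted p = 0.00403). Ccl5 went the other way with a higher effect in TH1 cells, 3.33 against 1.65, 3.03 and 0.37, a difference of 1.65 ± 0.372 SE (adjusted p = 0.0107). Bcl6, the follicular helper factor, also had a higher effect in TH1 cells, with 1.62 against -1.51, -1.26 and -2.17, a difference of 3.27 ± 0.549 SE (adjusted p = 0.00127, with 1.90 without KO3). In TH1 cells alone, Bcl6 was at 4.47, 4.58 and 4.49 CPM in WT and 4.6, 6 and 30.8 CPM in the libraries labelled Dohh-/-, with KO3 apart (log2 fold change 1.62 ± 0.467 SE, adjusted p = 0.00688, with 0.23 at adjusted p = 0.529 and no longer called without KO3). The Bcl6 call was lost when only the TH1 libraries were fitted (adjusted p = 0.0954). The effects on Cd4 and on 2 of the γδ markers were not called as different in TH1 cells, with differences of -0.56 ± 0.266 SE (adjusted p = 0.234) for Cd4, -0.24 ± 0.313 SE (adjusted p = 0.724) for Trdc and -0.55 ± 0.253 SE (adjusted p = 0.217) for Tcrg-C2.

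Odc deficiency lowers polyamines and with them the spermidine that hypusine synthesis uses, and TH1 cells from Odc flox/flox mice crossed to the same Cre line (4 libraries labelled ODC_KO and 4 labelled ODC_WT) are held in a separate table. The log2 fold change of labelled Dohh-/- over WT is called the Dohh effect and that of ODC_KO over ODC_WT the Odc effect. The tables were not counted alike, since 275 genes had at least 500 counts in the Odc table and at most 5 in the Dohh table and 13 the reverse, so only the effects within each table were compared. Of 12924 genes tested in both, the Dohh effect was higher for 773 (5.98%) and lower for 689 (5.33%), and without KO2 for 514 and 572 of 13014. For most cytotoxic genes the Dohh effect was the higher of the pair. Of 15 granzymes and effectors 12 had a higher Dohh effect and none a lower one, with median effects of 4.36 for Dohh and 1.66 for Odc. The Dohh effect on Gzmb was 3.55 and the Odc effect 1.5, a difference of 2.05 ± 0.578 SE (adjusted p = 0.00899). For Gzma the effects were 6.73 and 2.36, a difference of 4.37 ± 0.605 SE (adjusted p = 1.1e-06). For Gzmc they were 6.84 and 2.93, a difference of 3.91 ± 0.623 SE (adjusted p = 1.4e-05). Of 22 TH1 genes 10 had a higher and 2 a lower Dohh effect, the latter being Cxcr3, with a difference of -3.27 ± 0.357 SE (adjusted p = 6.9e-09), and Il2, which had 3 to 8 counts in each TH1 library of the Dohh table and has no reliable fold change. Ifng had effects of 3.74 and 1.13, a difference of 2.61 ± 0.638 SE (adjusted p = 0.00277), and Tbx21 of 2.08 and 0.39, a difference of 1.69 ± 0.448 SE (adjusted p = 0.00556). Of 22 genes of the T cell receptor complex and identity, 3 had a higher and 5 a lower Dohh effect. Cd4 had effects of -4.54 and -0.95, a difference of -3.59 ± 0.361 SE (adjusted p = 1.07e-09), and its level in the libraries labelled ODC_KO was 463 ± 129 CPM (SD, n = 4) against 883 ± 128 CPM (SD, n = 4) in their WT. Cd5 differed by -3.62 ± 0.291 SE (adjusted p = 2.58e-12) and, from the Treg list, Foxp3 by -3.42 ± 0.746 SE (adjusted p = 0.000943, with -4.80 without KO2 and -2.78 without KO3). The higher ones were Thy1, with a difference of 1.52 ± 0.212 SE (adjusted p = 9.99e-07), and the receptor signalling chains Cd3d, with 1.23 ± 0.314 SE (adjusted p = 0.00391, with 0.86 at adjusted p = 0.0502 and no longer called without KO2), and Cd3g, with 1.38 ± 0.307 SE (adjusted p = 0.00109). Markers of other cells moved as well. Of 6 γδ T cell markers 3 had a higher Dohh effect and none a lower one, with medians of 4.26 for Dohh and 2.82 for Odc. Of 9 basophil and mast cell markers tested for both effects, the growth factor receptor gene Kit alone had a higher Dohh effect. Kit was at 2.32, 1.99 and 2.24 CPM in WT and 3.99, 4.89 and 80.5 CPM in the libraries labelled Dohh-/-, with KO3 far apart. The difference was 4.24 ± 0.737 SE (adjusted p = 5.43e-05, with 1.55 without KO3). Of 7 B cell markers none had a higher and 5 a lower Dohh effect, with medians of -1.16 for Dohh and 2.94 for Odc. Among these, Ighm had effects of -1.71 and 3.21, a difference of -4.92 ± 0.541 SE (adjusted p = 1.01e-08), and Cd22, a coreceptor of B cells, of -1.26 and 2.90, a difference of -4.17 ± 1.03 SE (adjusted p = 0.00314). The part of B cells in the differences between the tables was not tested. Cd3d, Cd3g, Kit and Cd22 were named after their values were seen.

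**Figure D5:**
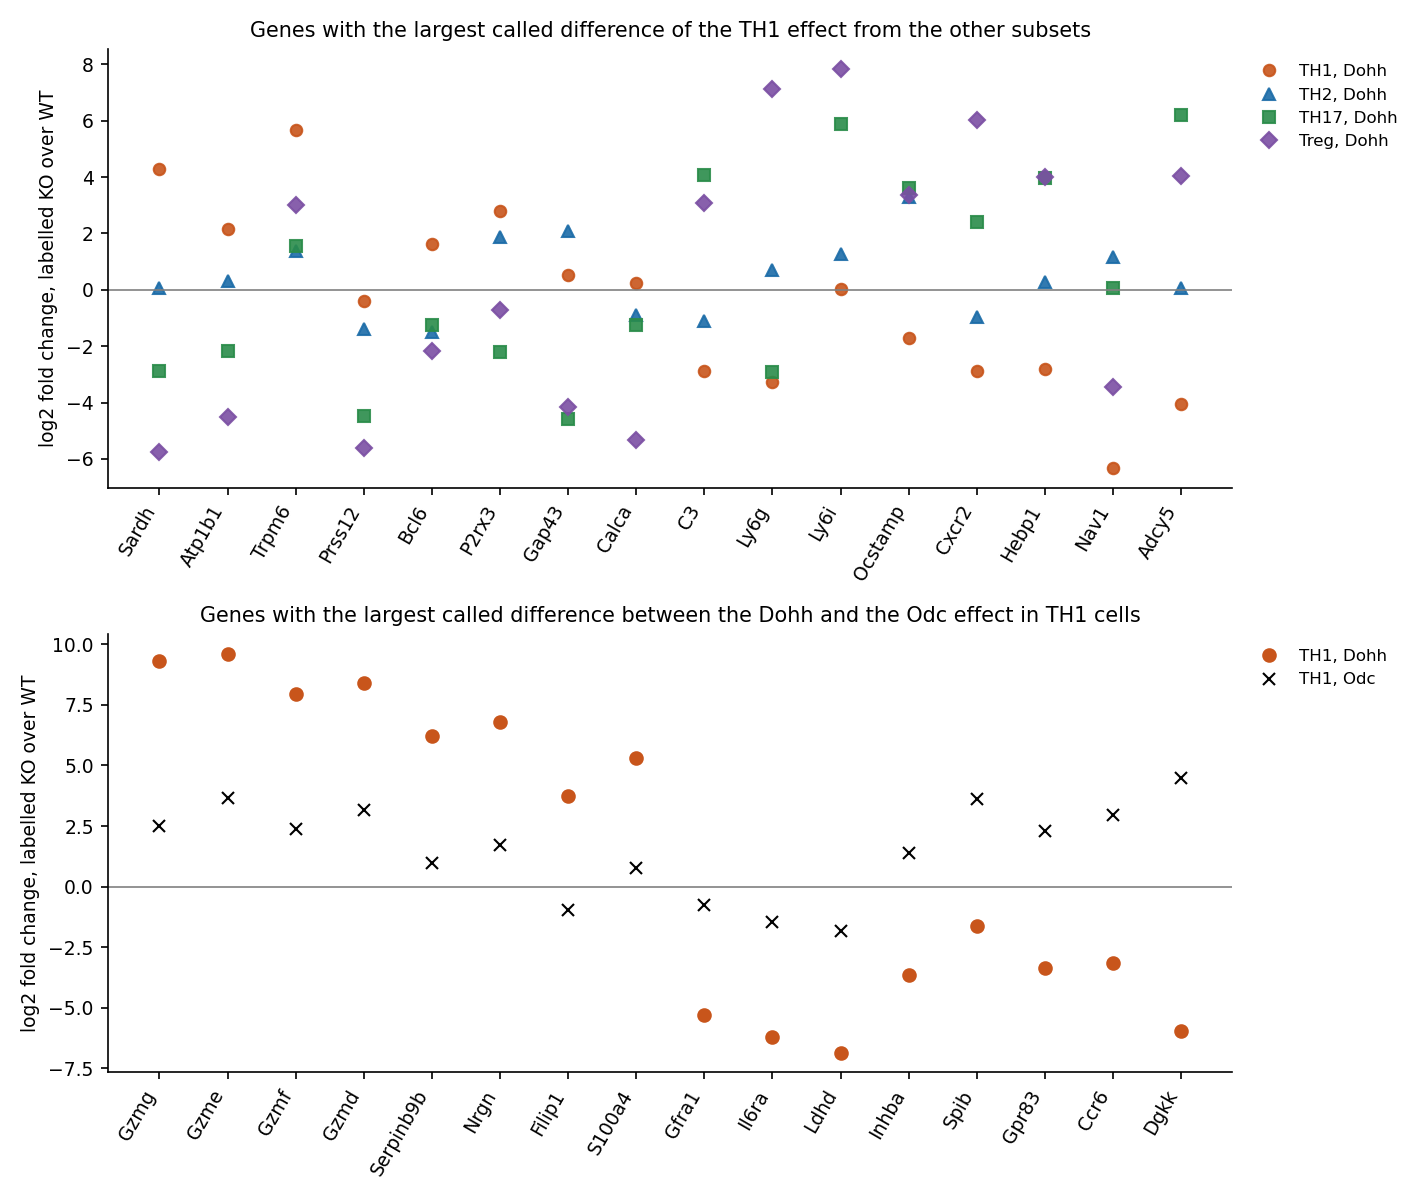
Log2 fold change of the labelled Dohh-/- libraries against WT in TH1, TH2, TH17 and Treg cells for 16 genes whose TH1 effect differed from the other subsets (one panel), and the Dohh and Odc effects in TH1 cells for 16 genes whose effects differed (the other). Each point is 1 fitted effect, over 3 libraries a group for Dohh and 4 for Odc. Nrgn, S100a4 and the granzymes from Gzmd to Gzmg have higher Dohh effects, and Ccr6, Il6ra and Gpr83 lower ones. Dgkk, Adcy5 and Nav1 were at 0 in every TH1 library labelled Dohh-/-, so the height of those points depends on the prior count of the fit.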

How the data were processed

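RNA-seq libraries of TH1 cells were compared by genotype label. The authors deposited tables of raw gene counts; the submitters' processing notes name STAR, featureCounts, DESeq2, deepTools and mm10, and the annotation release and strand setting are not given in the sources used here. Lengths, coordinates and overlaps came from GENCODE M21, which held 47310 of 47937 gene IDs.

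Genes were filtered with filterByExpr, scaled by TMM and fitted with edgeR 4.0.16 (R 4.3.3), robust quasi-likelihood, on the 24 libraries in 8 groups of the Dohh table. A gene was called at a Benjamini-Hochberg adjusted p below 0.05 and a log2 fold change beyond 1. The Odc comparison joined both tables in 1 fit, with effects taken within each table. The fit was tested on simulated data.

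Named genes were the tested members of the TH1, TH2, TH17, Treg and polyamine lists, up to 4 called genes per direction of the other lists at 5 CPM or more, the 15 largest changes per direction without group overlap at 10 CPM or more, the 5 called genes with the highest level per direction and the 8 largest differences per direction, leaving out receptor segments and unnamed gene models. Members and lists were chosen with earlier results of these data known.

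Alternatives were RLE scaling, no filter, a mean count of at least 50, DESeq2 1.42.0, a replicate block, glmTreat (the test against the 2-fold change), other thresholds, TH1 libraries only and leaving out each library. Receptor segment sums and medians by exonic length bin were added after seeing the data. Figures used Python 3.11.15 and matplotlib 3.10.9. Some list members are counted but not reported here by name.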

Additional observations from a re-analysis of the deposited data

Results flagged for a closer look

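In TH1 cells the effect of the label Dohh-/- differed from the mean effect in TH2, TH17 and Treg cells for 540 genes of those tested, by edgeR's test of the difference itself. Values are TH1 effect minus mean of the others, on the log2 scale. Sardh, a mitochondrial enzyme of choline breakdown, had the largest higher value at 7.13, followed by Atp1b1, a sodium pump subunit, at 4.29, Trpm6, a magnesium channel, at 3.71, Prss12 at 3.42 and Bcl6, the repressor that directs T follicular helper cells, at 3.27. P2rx3 stood at 3.15, Gap43 at 2.75 and Calca at 2.73. The calls of Gap43 and Calca were lost without WT1, and that of Gap43 also without KO1 or WT2. Single libraries moved some of these values by over 1.5-fold. Without KO3 the value of Atp1b1 was 2.99, that of Prss12 2.55 and that of Bcl6 1.90. Without KO2 that of Sardh was 6.42, and without KO1 that of P2rx3 was 2.44. In TH1 cells alone, Prss12, Gap43 and Calca had log2 fold changes of -0.40, 0.53 and 0.25 and were not called. Prss12 was called lower there without KO3 (-1.29).

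On the lower side Adcy5, an adenylate cyclase, stood at -7.49, Nav1 at -5.57, Hebp1 at -5.54, Cxcr2, a chemokine receptor of neutrophils, at -5.39, Ocstamp at -5.15, Ly6i at -4.96, Ly6g, a neutrophil surface marker, at -4.91 and C3, complement component C3, at -4.90. Leaving out single libraries ended the call for Nav1 (KO1, KO2 or WT1), Ly6i (KO1 or WT1) and Ocstamp (each TH1 library other than KO1). Adcy5 was at -8.10 without WT1, Ly6g at -6.19 without KO3, Ly6i at -6.80 without KO2, C3 at -4.29 without KO1 and -5.74 without KO2, and Ocstamp at -6.96 without KO1 and -4.52 without KO3. In TH1 cells alone, Ly6i and Ocstamp had log2 fold changes of 0.04 and -1.73, and neither was called. In the WT TH1 libraries Ly6g stood at 46.9, 69.6 and 67.5 CPM, S100a8, S100a9 and Mpo, which neutrophils also express, at 0 and Lyz2 at no more than 0.248 CPM. Adcy5 and Nav1 were at 0 in every TH1 library labelled Dohh-/-, and Sardh and Trpm6 had at most 3 counts in each WT TH1 library, so their fitted values depend on the prior count and are no measure of size.

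In TH1 cells the effect of the label Dohh-/- differed from that of the label ODC_KO for 1462 genes. On the higher side, as Dohh effect minus Odc effect, Gzmg stood at 6.82, Gzme at 5.96, Gzmf at 5.57, Gzmd at 5.26 and Serpinb9b, a granzyme inhibitor family member, at 5.23. Nrgn followed at 5.08, Filip1 at 4.74 and S100a4 at 4.54, and the call of Nrgn was lost without WT1. Without KO3 Gzmg was at 4.50, Gzmf at 3.98, Serpinb9b at 2.38, Nrgn at 3.78 and Filip1 at 3.99. S100a4 was at 3.69 without KO2 and Gzme at 6.58 without WT1. Gzme and Gzmg had 1 to 7 counts in each WT library, so the size of their values is uncertain. On the lower side were Ccr6, the CCL20 receptor, at -6.10, Gpr83 at -5.68, Spib, an ETS factor of B cells, at -5.25, Inhba at -5.04, Ldhd at -5.00, Il6ra, the IL-6 receptor chain, at -4.71 and Gfra1 at -4.52. The fit gave -10.42 for Dgkk, a diacylglycerol kinase on the X chromosome, which was at 0 in every TH1 library labelled Dohh-/-. Ldhd and Ccr6 had at most 3 counts in each of those libraries and Nrgn in each WT library. The fitted values of these 4 genes depend on the prior count and are no measure of size. Without KO3 Ccr6 was at -6.85, Il6ra at -4.11, Gpr83 at -5.00 (-6.39 without KO2) and Ldhd at -7.72 (-4.34 without KO1), and Spib was at -6.01 without KO1. Spib had a Dohh effect of -1.63, which was not called, and an Odc effect of 3.62. Of 7 B cell markers 5 were also lower in this difference, with a median Odc effect of 2.94, and their part in it was not tested.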

How the results depend on the processing

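Against 4039 genes called in TH1 cells, DESeq2 called 4236, and leaving out single libraries gave counts of 3141 (without KO2) to 5039 (without KO3). Tested against the 2-fold change itself the count was 1692 (825 higher and 867 lower), and without a fold threshold 6948 (3599 and 3349). With the 6 TH1 libraries alone and the replicate number as a block, an alternative added after seeing the data, 1368 genes were higher and 1627 lower, and without the block 1547 and 1553. The difference from the other subsets, 540 genes, gave 84 against the 2-fold change, 233 at an adjusted p below 0.01, and 329 (without WT1), 339 (without WT2) to 1233 (without KO3) when a library was left out. The difference from the Odc effect, 1462 genes, gave 259, 2835 without a fold threshold and 944 at an adjusted p below 0.01. The list genes called were 205 against the 2-fold change. Among named genes, leaving out 1 library gave log2 fold changes of -0.094 (adjusted p = 0.92, without KO3) to 3.01 (without KO2) for Egr3 and of 0 (without KO2) to 11.69 (without KO1) for S100a9, and the cause was not tested. S100a9 was at 0 in every TH1 library but KO2, so its fitted values depend on the prior count and are no measure of size. Among left-out libraries, calls of named genes were lost most often without KO2 (33 genes, and S100a9 besides, whose fitted value went to 0). Testing against the 2-fold change ended 75, and the TH1 libraries alone 25, among them Il24, Cxcr4, Tnfrsf4, mt-Co1, Bcl6, Egr2, Egr3, Aurka, Plk1, Lta and Atp1b1.

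The replicate numbers were not taken as pairs, since same-numbered TH1 libraries of the 2 genotypes had correlations of deviations of 0.136, 0.031 and -0.027. The main fit took the 24 libraries as independent. On the first principal component of these libraries (the axis of largest variation), replicate 1 lay nearest to WT among the libraries labelled Dohh-/- of each subset. Whether libraries of 1 replicate number share a donor across subsets was not tested. With the replicate block 4061 genes were called (2051 higher and 2010 lower), 555 for the subset difference and 1559 for the Odc difference, and of the named genes Aldoc, Cd69, Idh3a, Itga4 and Plk1 lost their call.

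These counts rest on 3 libraries a group. Genes near the floor of 3 counts have no reliable fold change, and KO2, which has the lowest TMM factor and the lowest correlations with WT, decides many list counts.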

Other observations

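Other gene groups of the TH1 comparison also held called genes. Of 18 other inflammatory cytokine genes tested 5 rose and 1 (2 without WT3, 3 without KO1, 4 without KO3) fell. Csf1, the macrophage growth factor, rose from 10.7, 18.4 and 15.1 CPM in WT to 92.2, 49.4 and 292 CPM in the libraries labelled Dohh-/- (log2 fold change 3.30 ± 0.538 SE, adjusted p = 6.14e-05, with 2.27 without KO3). Csf2, which encodes GM-CSF, rose from 2.07, 2.39 and 2.13 CPM to 8.07, 4.1 and 38.1 CPM (log2 fold change 2.93 ± 0.59 SE, adjusted p = 0.000379, with 1.49 without KO3), and KO3 was highest for both. Tnfsf10, the death ligand TRAIL, rose from 13.8, 14.5 and 12.4 CPM to 71.1, 45.4 and 123 CPM (log2 fold change 2.55 ± 0.308 SE, adjusted p = 1.6e-06). Tnfsf8, the ligand of CD30, fell from 82.4, 79.4 and 79.3 CPM to 15, 11.8 and 42.9 CPM (log2 fold change -1.78 ± 0.313 SE, adjusted p = 9.78e-05, with -2.56 without KO3). Receptors for chemokines moved in both directions. Ccr1, a receptor of CCL3 and CCL5, rose from 4.14, 2.39 and 2.69 CPM to 13.9, 11 and 54.2 CPM (log2 fold change 3.09 ± 0.742 SE, adjusted p = 0.00204, with 2.01 without KO3), while Cxcr4, the CXCL12 receptor, fell from 48.5, 44.2 and 62.7 CPM to 13.6, 7.73 and 35.6 CPM (log2 fold change -1.43 ± 0.368 SE, adjusted p = 0.00307, with -2.25 without KO3), a call lost when only the TH1 libraries were fitted (adjusted p = 0.0525).

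Single genes of other lists were called as well. Bach2, a repressor of effector genes in naive and memory T cells, fell from 111, 103 and 88.3 CPM to 12.3, 11.8 and 21.2 CPM (log2 fold change -2.74 ± 0.257 SE, adjusted p = 6.44e-08). Tcf7, the TCF-1 factor of the same cells, was at 9.03, 15.1 and 8.75 CPM in WT and 0.92, 0.158 and 3.31 CPM in the libraries labelled Dohh-/- (log2 fold change -2.82 ± 0.766 SE, adjusted p = 0.00508, with -4.14 without KO3). Of 16 cell cycle inhibitors and G1 cyclins 3 rose and 2 (1 without KO1 or KO2 or WT1) fell. Ccnd1, cyclin D1, rose from 2.07, 1.79 and 1.91 CPM to 9.61, 9.15 and 11.9 CPM (log2 fold change 2.40 ± 0.592 SE, adjusted p = 0.00211). The single p53 target gene called higher was Pmaip1, the proapoptotic NOXA gene, which rose from 16.5, 12.4 and 17.8 CPM to 60.3, 54.3 and 66.1 CPM (log2 fold change 1.95 ± 0.204 SE, adjusted p = 2.48e-07). Fas, the death receptor, and Trp53inp1, a p53-induced stress gene, fell on the same list, Fas from 34.1, 36.3 and 36.3 CPM to 8.28, 11.2 and 7.94 CPM (log2 fold change -1.97 ± 0.228 SE, adjusted p = 9.7e-07) and Trp53inp1 from 114, 93.4 and 80.3 CPM to 9.3, 5.52 and 22.8 CPM (log2 fold change -2.92 ± 0.386 SE, adjusted p = 5.43e-06, with -3.66 without KO3). The receptor genes Tnfrsf4, which encodes OX40, and Il4ra, an IL-4 receptor chain, fell, Tnfrsf4 from 448, 503 and 505 CPM to 129.9, 329 and 63.5 CPM (log2 fold change -1.48 ± 0.376 SE, adjusted p = 0.00275, with -2.32 without KO2), a call lost when only the TH1 libraries were fitted (adjusted p = 0.0667), and Il4ra from 745, 786 and 667 CPM to 349, 365 and 303 CPM (log2 fold change -1.11 ± 0.151 SE, adjusted p = 6.22e-06). Of these genes, Csf2 and Ccnd1 share 12% and 23.4% of their exonic bases with another annotated gene.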
